A study of Mus musculus with 6 samples.

Results

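The collagen chain genes were examined in 6 RNA-seq libraries of mouse mammary cells, 3 of primary mammary epithelial cells (MEC) and 3 of tumor cell lines that lack JNK (MEKO). Members were chosen by gene symbol, as every entry named Col, a number, a and a number, and *Col17a1*, the transmembrane collagen of hemidesmosomes, was left out. This gave 43 genes of 37753 entries with values, and each stood on a single entry of its own. Of the 43, 22 had a mean of at least 1 FPKM (fragments scaled to transcript length and library size) over the 6 libraries and were tested. They comprised 7 of 11 fibrillar collagens, 6 of 8 basement membrane collagens (types IV, XV and XVIII) and 9 of 24 others.

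The MEC carried WAPCre+ on a C57/Bl6J background, with no *Mapk8* or *Mapk9* deletion on their label. Each of these cultures came from 3 to 5 pooled virgin females, 10 to 12 weeks old, and RNA was taken close to confluence on plates coated with collagen I. The MEKO lines, numbered 199, 233 and 336, were labelled Mapk8KO Mapk9KO Cre+ on the same strain. They were grown from tumors of mice that had borne litters, and the age of those mice is not on the labels. Cre from the *Wap* promoter is induced by lactation and acts in luminal cells. The study bred its females at 10 to 12 weeks and followed them for tumors after weaning. Tumor cells passed 2 times on collagen I and were then moved to uncoated dishes. JNK status, tumor origin, parity, age of the mice, substrate and time in culture therefore cannot be told apart. Each MEKO library is 1 line from 1 mouse. By mouse number, the source data of the study list adenosquamous carcinoma for 199, both adenosquamous carcinoma and adenocarcinoma for 233, and adenocarcinoma for 336.

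*Mapk8*, which encodes JNK1, was at 19.2 to 25.1 FPKM in MEC and at 1.37 to 5.93 FPKM in MEKO, and *Mapk9*, which encodes JNK2, was at 21.5 to 24.4 and 3.07 to 7.62 FPKM. Every library held *Epcam* and *Cdh1*, epithelial adhesion genes, though both were lower in each line than in MEC. *Epcam* had 519 to 549 FPKM in MEC and 128 to 252 FPKM in the lines, and *Cdh1* 259 to 319 and 71.1 to 104 FPKM. *Elf5*, a luminal transcription factor, was at 0.461 FPKM or less in each line and at 31.5 to 44.3 FPKM in MEC. Line 199 stood apart from the other lines in some myoepithelial genes. *Krt5*, a basal keratin, had 608 FPKM there, 1.33 and 15.3 FPKM in lines 233 and 336, and 201 to 435 FPKM in MEC, while *Myh11*, smooth muscle myosin, was at 0.0812 FPKM or less in every line and at 22.4 to 41.8 FPKM in MEC. Results that rest on line 199 are therefore given with and without it. The line was singled out by values of these data, and a fit without it holds lines 233 and 336 alone for MEKO. Leaving it out lowers the spread between lines for genes in which it differed, so p values of that fit are a description.

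Collagens are secreted proteins of 3 chains wound into a triple helix. Fibrillar collagens, led by type I, build the banded fibers of the stroma and are made mainly by fibroblasts. Type IV collagens form the mesh of the basement membrane on which mammary epithelium rests, and myoepithelial cells contribute to that layer. Other families decorate fibrils (types IX, XII, XIV and XVI), form beaded microfibrils (type VI), anchor epidermis (type VII) or make short-chain networks (type VIII).

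Upstream sequence of 4 collagen genes is shown here because 3 of them, *Col3a1*, *Col5a3* and *Col6a3*, shared the pattern described below, above MEC in line 199 and below MEC in the other lines, and the fourth, *Col8a1*, did not lie below MEC in any line. Each run is the 250 bases before the RefSeq start of transcription on GRCm38.p6, 5′ to 3′ on the strand of the gene, and holds no annotated exon in GENCODE M21. Capitals mark CCAAT or TATAAA on either strand. *Col3a1* lies at chr1:45311288-45311537 (plus strand), *Col5a3* at chr9:20815068-20815317 (minus strand), *Col6a3* at chr1:90843972-90844221 (minus strand) and *Col8a1* at chr16:57754738-57754987 (minus strand).
Col3a1: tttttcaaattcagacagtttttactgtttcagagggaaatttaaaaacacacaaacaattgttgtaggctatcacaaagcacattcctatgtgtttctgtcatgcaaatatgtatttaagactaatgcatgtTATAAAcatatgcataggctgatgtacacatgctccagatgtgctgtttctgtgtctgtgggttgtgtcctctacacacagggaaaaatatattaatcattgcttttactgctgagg
Col5a3: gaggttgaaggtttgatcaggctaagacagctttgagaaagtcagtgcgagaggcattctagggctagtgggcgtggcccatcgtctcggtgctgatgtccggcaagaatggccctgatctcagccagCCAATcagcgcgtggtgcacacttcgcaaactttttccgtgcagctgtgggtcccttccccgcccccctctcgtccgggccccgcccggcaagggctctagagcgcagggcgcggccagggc
Col6a3: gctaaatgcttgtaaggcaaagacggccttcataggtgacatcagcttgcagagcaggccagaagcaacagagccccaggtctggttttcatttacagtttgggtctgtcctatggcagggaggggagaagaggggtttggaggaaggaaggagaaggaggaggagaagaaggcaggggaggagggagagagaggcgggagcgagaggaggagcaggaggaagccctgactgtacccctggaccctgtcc
Col8a1: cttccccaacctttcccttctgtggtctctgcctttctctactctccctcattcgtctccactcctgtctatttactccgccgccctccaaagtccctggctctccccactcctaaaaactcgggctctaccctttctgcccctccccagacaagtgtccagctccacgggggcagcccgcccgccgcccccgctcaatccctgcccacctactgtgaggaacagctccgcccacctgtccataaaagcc

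The TATAAA of *Col3a1* began 117 bases before its start, and the CCAAT of *Col5a3* began 122 bases before its start. *Col6a3* and *Col8a1* held neither motif in this window. RefSeq windows were found for 34 of the 43 genes, 37 windows in all. CCAAT was in windows of 12 genes (12 of 37 windows, against 33.8% of all 32851 windows), and TATAAA was in 4 (against 12.4%). The AP1 motif TGANTCA, searched on both strands, was in the window of 1 collagen gene, *Col6a1*, and in 6.75% of all windows. None of these motifs contains another, and a match is a description of letters only.

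In MEC the fibrillar and basement membrane chains stood at similar totals. The summed FPKM of the 43 genes was 428 in MEC 1, 505 in MEC 2 and 363 in MEC 3. Fibrillar chains made up 36.7% to 44.9% of it, basement membrane chains 35.1% to 38.8%, and the others 20.0% to 28.2%. The most abundant chains were *Col18a1*, which encodes the core protein of a heparan sulfate proteoglycan, with 47.5 to 73.4 FPKM, and *Col1a1*, the α1 chain of type I, with 44.2 to 74.7 FPKM.

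The lines departed from this in opposite directions. In line 199 the collagen total was 1700.1 FPKM, 3.94 times the MEC mean of 432 ± 71.0 FPKM (SD, n = 3), and in lines 233 and 336 it was 109.9 and 113 FPKM, or 25.5% and 26.1% of that mean. Fibrillar chains showed the widest gap, at 1223 FPKM in line 199 against 2.98 and 3.13 FPKM in the other lines, where MEC had 176 ± 47.5 FPKM. Their share of the collagen total was 72.0% in line 199 and 2.71% and 2.78% in the others. Basement membrane chains summed to 274 FPKM in line 199, 63.0 FPKM in line 233 and 62.3 FPKM in line 336, against 157 ± 26.0 FPKM in MEC. The other collagens summed to 203, 43.9 and 47.4 FPKM, against 99.3 ± 3.96 FPKM. In bulk RNA, fewer cells that make a collagen and less collagen RNA per cell cannot be told apart.

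**Figure D1:**
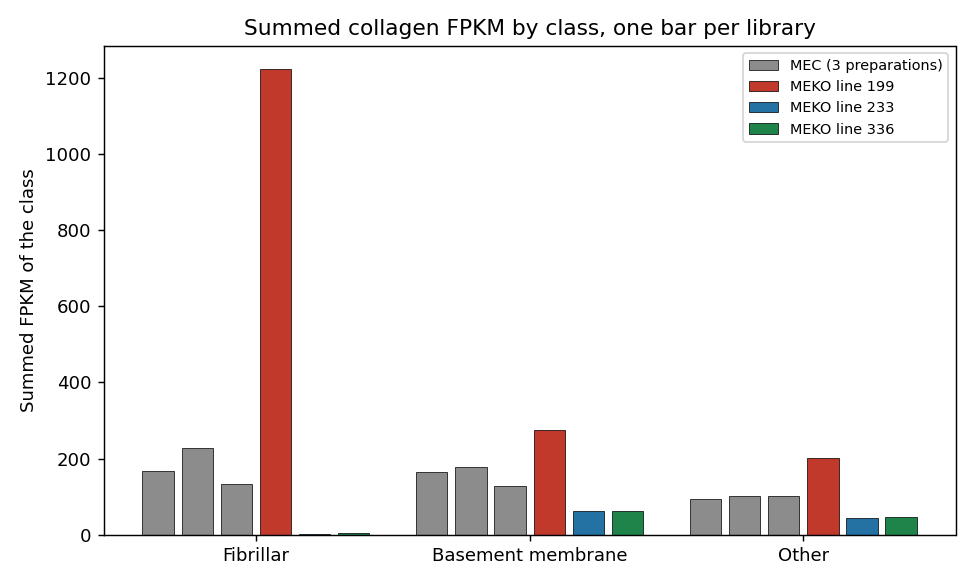
Summed FPKM of the fibrillar, basement membrane and other collagen genes, with 1 bar for each of the 3 MEC preparations (gray) and each MEKO line. The fibrillar sum was 1223 FPKM in line 199, between 133 and 227 FPKM in MEC, and 2.98 and 3.13 FPKM in lines 233 and 336.

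The 3 lines together were compared with MEC by limma on log2(FPKM + 1), and a gene was called at an adjusted p under 0.05 with a log2 fold change beyond 0.75. Of the 22 tested collagens 4 were called lower in MEKO, *Col9a3*, *Col11a1*, *Col14a1* and *Col15a1*, and none higher, while 7.26% of all 12461 tested entries were called lower and 2.64% higher (9.90% in either direction). An unadjusted p under 0.05 was reached by 5 collagens. The same 4 were the only tested members whose groups did not overlap, against 37.2% of all tested entries. Each of the 4 passed the expression filter through its level in MEC alone, so they were bound to differ and their count is a description. The median log2 fold change was -1.65 over the 22 and 0.01 over all tested entries. The count of 4 was 1 without MEC 1, 2 without MEC 2 or MEC 3, and 17 without line 199. A p here measures the spread between preparations of cells and between lines.

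*Col9a3* (chromosome 2 of GRCm38, 180597790 to 180622189), the α3 chain of fibril-associated type IX, had 6.39, 4.56 and 10.0 FPKM in MEC 1 to 3, and 0.608, 0.245 and 0.523 FPKM in lines 199, 233 and 336. All lines were below every MEC preparation, with means of 6.99 ± 2.77 and 0.459 ± 0.190 FPKM (SD, n = 3). MEKO minus MEC was -2.40 on the log2 scale, with a standard error of 0.30 (limma adjusted p = 0.00748). It overlaps *Tcfl5* on the opposite strand over 6.07% of its exonic bases.

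*Col15a1* (chromosome 4, 47208161 to 47313167), a proteoglycan collagen beside basement membranes, had 6.01, 7.11 and 10.0 FPKM in MEC and 1.66, 0.0277 and 0.145 FPKM in the lines. Line 199 kept 21.5% of the MEC mean, more than the others, and still lay below every MEC value. The difference was -2.55 on the log2 scale, with a standard error of 0.41 (limma adjusted p = 0.0164), and the adjusted p was 0.0692 to 0.0734 when any 1 MEC preparation was left out and 0.0503 without line 336.

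*Col11a1* (chromosome 3, 114030540 to 114220718), a minor fibrillar chain that nucleates thin fibrils, had 4.68, 2.35 and 5.31 FPKM in MEC and 0.261, 0.00280 and 0.534 FPKM in the lines. It was the single tested fibrillar chain that was low in line 199 as well. The difference was -1.98 on the log2 scale, with a standard error of 0.33 (limma adjusted p = 0.0177), and with an adjusted p of 0.0841 without MEC 1 and 0.0608 without MEC 3.

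*Col14a1* (chromosome 15, 55307750 to 55520803), a fibril-associated collagen, had 1.79, 1.73 and 3.05 FPKM in MEC, was at 0.00276 and 0.00333 FPKM in lines 199 and 233, and was listed at 0 in line 336. On the log2(FPKM + 1) scale, which understates changes of low genes, the difference was -1.65 with a standard error of 0.27 (limma adjusted p = 0.0164). The adjusted p was 0.0628 without MEC 1 and 0.0532 without MEC 2.

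For each line on its own, the tested collagens were placed against the range of the 3 MEC preparations. In line 199, 13 of 22 lay above all MEC and 5 below, where 40.2% and 39.1% of all tested entries did so. In line 233, 19 lay below and 1 above (37.9% and 37.4% of all entries), and in line 336 again 19 lay below and 1 above (37.4% and 39.2%). The median log2 difference from the MEC mean was 0.55, -2.60 and -2.43 in lines 199, 233 and 336, with 0.01, 0.00 and 0.02 over all tested entries. Each line is 1 library, so these placements have no replicate and no test. Above all MEC in line 199 and below all MEC in both other lines were 12 of the 22, a pattern chosen after its values were seen and held by 4.32% of all tested entries. The reverse pattern was held by 3.65% of all tested entries and by 0 collagens.

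**Figure D2:**
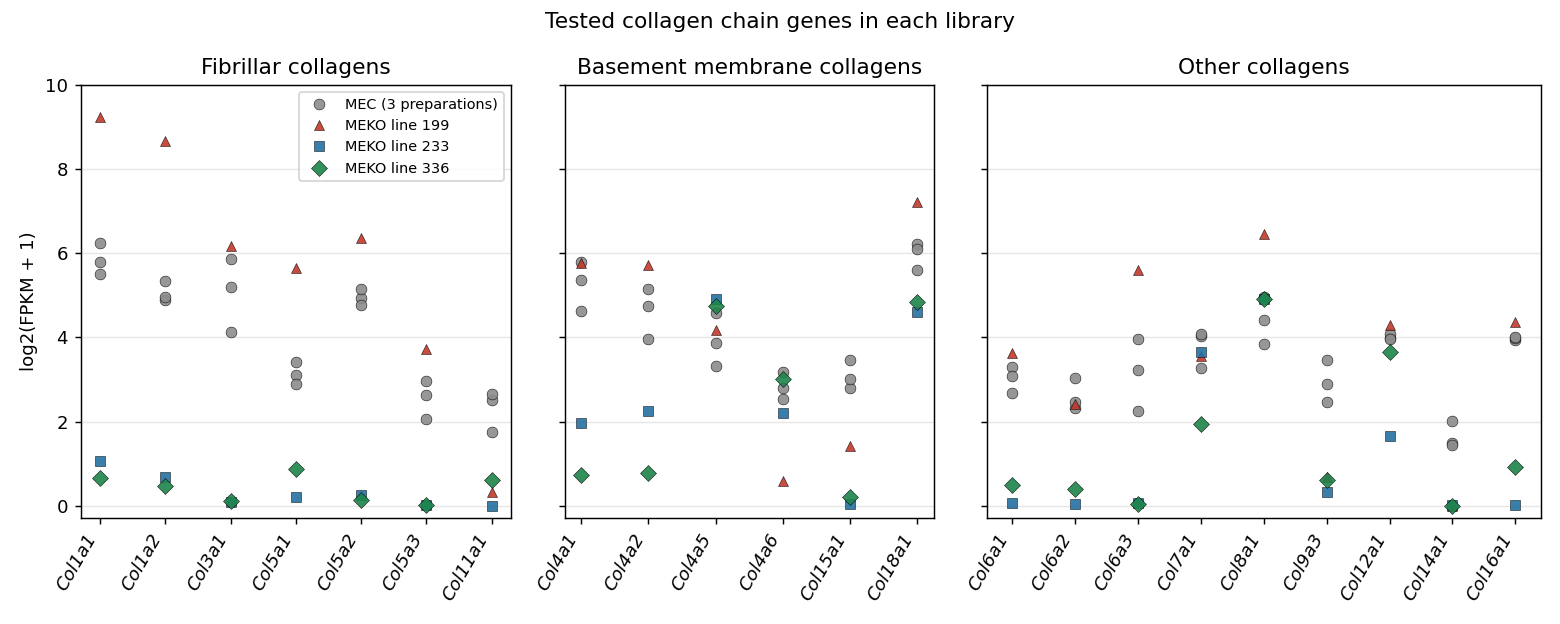
log2(FPKM + 1) of the 22 tested collagens in each library, by class, with gray circles for the 3 MEC preparations and colored symbols for MEKO lines. Line 199 lies above MEC for 6 of 7 fibrillar chains while lines 233 and 336 lie below MEC for all 7, and *Col4a5* and *Col8a1* lie within or above the MEC range in every line.

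The fibrillar chains showed the widest split. *Col1a1* (chromosome 11, 94936224 to 94953042) had 54.2, 74.7 and 44.2 FPKM in MEC 1 to 3, 599.7 FPKM in line 199, 1.08 FPKM in line 233 and 0.566 FPKM in line 336. Line 199 was at 10.4 times the MEC mean, and the other lines were at 1.87% and 0.981% of it. *Col1a2* (chromosome 6, 4504814 to 4541544), its partner in type I collagen, had 28.7, 39.3 and 30.3 FPKM in MEC and 408, 0.617 and 0.386 FPKM in the lines. Among all entries of line 199, *Col1a1* was the 119th and *Col1a2* the 178th by FPKM. Over the 3 lines the log2 difference of *Col1a1* was -2.20 with a standard error of 2.22 (limma adjusted p = 0.548), and that of *Col1a2* was -1.78 with a standard error of 2.14 (limma adjusted p = 0.617).

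*Col3a1* (chromosome 1, 45311538 to 45349706), which encodes the homotrimer of type III in pliable tissues, had 36.0, 57.6 and 16.5 FPKM in MEC, and 71.5, 0.0603 and 0.0738 FPKM in lines 199, 233 and 336. *Col5a2* (chromosome 1, 45374321 to 45503282), its neighbor on the opposite strand and a chain of the type V collagen that starts fibril assembly, had 29.6, 34.5 and 26.2 FPKM in MEC and 81.4, 0.191 and 0.104 FPKM in the lines. Both genes were thus highest in line 199, by 1.95 and 2.70 times the MEC mean, and under 1% of it elsewhere.

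The remaining type V chains were likewise above MEC in line 199 and below MEC in the other lines. *Col5a1* had 7.57, 9.73 and 6.37 FPKM in MEC and 49.4, 0.155 and 0.827 FPKM in lines 199, 233 and 336. *Col5a3* had 5.14, 6.76 and 3.15 FPKM in MEC and 12.2, 0.00395 and 0.00358 FPKM in the lines. Neither passed the test over the 3 lines (limma adjusted p = 0.703 and 0.442).

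Basement membrane collagens divided by chain. *Col4a1* (chromosome 8, 11198423 to 11312826) and *Col4a2* (chromosome 8, 11312805 to 11449287), which encode the common α1α1α2 trimer and start 22 bases into each other on opposite strands, were low in lines 233 and 336 only. *Col4a1* had 40.2, 54.1 and 23.7 FPKM in MEC and 53.1, 2.88 and 0.660 FPKM in lines 199, 233 and 336. *Col4a2* had 25.8, 34.3 and 14.6 FPKM in MEC and 52.1, 3.75 and 0.717 FPKM in the lines. Line 199 thus lay within the MEC range for *Col4a1* and above it for *Col4a2*.

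*Col4a5* (chromosome X, 141475385 to 141689234) and *Col4a6* (chromosome X, 141165403 to 141474076), neighbors that also point away from each other and encode the α5α5α6 trimer, were not low in that way. *Col4a5* had 13.5, 8.91 and 22.8 FPKM in MEC and 17.1, 29.2 and 25.8 FPKM in the lines (log2 fold change 0.70, standard error 0.36, limma adjusted p = 0.258). It was the 1 tested collagen above all MEC in lines 233 and 336, and the most abundant collagen of line 233. *Col4a6* had 5.96, 4.81 and 8.01 FPKM in MEC and 0.495, 3.61 and 7.06 FPKM in the lines, so that it was lowest in line 199, the reverse of *Col4a1* and *Col4a2*. *Col18a1* (chromosome 10, 77052178 to 77166548) had 73.4, 67.2 and 47.5 FPKM in MEC, 149 FPKM in line 199, and 23.5 and 27.9 FPKM in lines 233 and 336, or 37.4% and 44.5% of the MEC mean.

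Type VI chains, which form the beaded microfibrils, followed the fibrillar pattern in lines 233 and 336. *Col6a3* (chromosome 1, 90765923 to 90843971), the long α3 chain, had 8.34, 14.5 and 3.78 FPKM in MEC and 47.9, 0.0492 and 0.0250 FPKM in lines 199, 233 and 336. *Col6a1* had 5.43, 8.88 and 7.43 FPKM in MEC and 11.3, 0.0372 and 0.413 FPKM in the lines. *Col6a2* had 3.97, 7.26 and 4.53 FPKM in MEC and 4.31, 0.0244 and 0.318 FPKM in the lines. The excess of line 199 over the MEC mean was thus 5.40 times for the α3 chain and 1.56 times for α1, while α2 lay within the MEC range.

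*Col8a1* lay within the MEC range in lines 233 and 336 and *Col7a1* in lines 199 and 233, while *Col8a1* in line 199 was at 4.09 times the MEC mean. *Col8a1* (chromosome 16, 57624258 to 57754737), of the short-chain network, had 20.2, 13.4 and 30.3 FPKM in MEC and 87.2, 29.0 and 29.2 FPKM in the lines, the 2 last within the MEC range (log2 fold change 1.02, standard error 0.50, limma adjusted p = 0.236). It was the most abundant collagen of line 336, with 25.8% of the collagen total. *Col7a1* (chromosome 9, 108953586 to 108984875), of anchoring fibrils, had 15.4, 16.0 and 8.65 FPKM in MEC and 10.8, 11.6 and 2.83 FPKM in the lines, and only line 336 lay below MEC.

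The fibril-associated chains *Col12a1* and *Col16a1* differed from each other in lines 233 and 336. *Col12a1* had 15.0, 15.9 and 14.6 FPKM in MEC and 18.6, 2.13 and 11.5 FPKM in lines 199, 233 and 336, so that line 336 kept 76.0% of the MEC mean. *Col16a1* had 14.2, 14.8 and 15.0 FPKM in MEC and 19.6, 0.00677 and 0.906 FPKM in the lines, where lines 233 and 336 were at 0.0461% and 6.17% of it.

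Without line 199, 17 of the 22 collagens (77.3%) were called lower against MEC and none higher, beside 10.8% and 4.38% of all tested entries. These were all 7 tested fibrillar chains, 4 of 6 basement membrane chains and 6 of 9 others. In that fit *Col1a1* differed by -4.99 on the log2 scale with a standard error of 0.27 (limma adjusted p = 0.00150). *Col3a1* differed by -4.98 with a standard error of 0.52 (limma adjusted p = 0.00531), and *Col4a1* by -3.92 with a standard error of 0.50 (limma adjusted p = 0.00892). The 5 not called were *Col4a5*, *Col4a6*, *Col7a1*, *Col8a1* and *Col12a1*, with adjusted p values from 0.169 to 0.659. In lines 233 and 336 the mean of 14 of the 22 genes was under 1 FPKM, so that many of these collagens passed the filter through the other libraries. Such genes, *Col1a1* and *Col3a1* among them, were bound to differ. The count of 17 is therefore a description. So are the p values of this fit of lines 233 and 336, which leaves out a line singled out by its values. The median log2 fold change of the 22 was -2.57, and it was -4.48 over fibrillar, -2.11 over basement membrane and -2.39 over other collagens.

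The 21 collagens under the filter had means from 0 to 0.748 FPKM. Of these, 3 (*Col6a5*, *Col6a6* and *Col19a1*) were listed at 0 in every library. The highest value of an untested collagen in a MEKO line was 1.498 FPKM, for *Col8a2* in line 199. MEC means were the higher in 14 of the 21 and MEKO means in 4. *Col9a1* and *Col28a1* were listed at 0 in each line and had 0.0983 to 0.725 and 0.108 to 0.253 FPKM in MEC.

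Ratios between chains of 1 collagen type, chosen after values were seen, were computed in each library. *Col1a1* to *Col1a2* stayed between 1.46 and 1.90 in MEC and between 1.47 and 1.75 in the lines, although the level of *Col1a1* itself ranged from 0.566 to 599.7 FPKM. The protein holds α1 and α2 chains in unequal number, with more of α1. *Col4a1* to *Col4a2* was 1.56, 1.58 and 1.62 in MEC and 1.02, 0.768 and 0.920 in lines 199, 233 and 336, without overlap (p = 0.1 by a two-sided exact permutation test, and no smaller p is possible with 3 libraries a group).

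*Col4a5* to *Col4a6* was 2.27, 1.85 and 2.84 in MEC and 34.5, 8.09 and 3.66 in the lines, and *Col5a1* to *Col5a2* was 0.256, 0.282 and 0.243 in MEC and 0.607, 0.813 and 7.96 in the lines. Both were higher in every line (exact permutation p = 0.1 for each). Several ratios stand on values under 1 FPKM, which are measured with little precision. These are the type V and type VI ratios in lines 233 and 336, *Col4a5* to *Col4a6* in line 199 (*Col4a6* at 0.495 FPKM), *Col4a1* to *Col4a2* in line 336 (0.660 and 0.717 FPKM), and *Col1a1* to *Col1a2* in lines 233 and 336, where *Col1a2* was at 0.617 and 0.386 FPKM. *Col6a1* to *Col6a2* and *Col6a3* to *Col6a1* overlapped between the groups (exact permutation p = 0.6 and 0.8). Of the 6 ratios none reached 0.05, which this design does not allow, and adjustment over the 6 cannot lower a p.

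**Figure D3:**
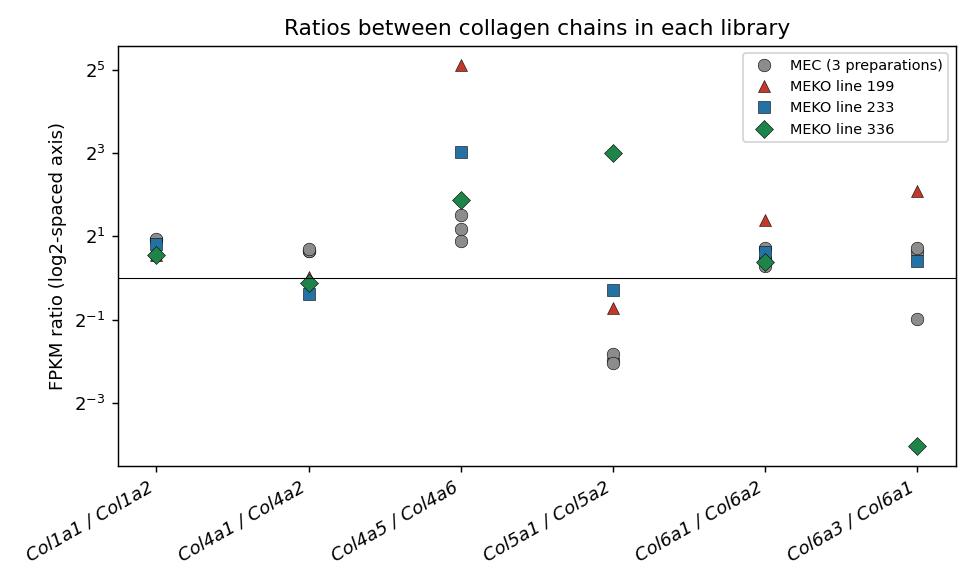
FPKM ratio of 6 pairs of collagen chains in each library, on a log2-spaced axis, with gray circles for the 3 MEC preparations and colored symbols for MEKO lines. The *Col1a1* to *Col1a2* ratio lies between 1.46 and 1.90 in all 6 libraries, and the *Col4a1* to *Col4a2* ratio is 1.02 or less in the lines and 1.56 or more in MEC.

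Genes that act on collagen were taken from 6 lists with 66 genes, all in the table, of which 56 were tested. Over the 3 lines 6 were called lower and 1 higher, beside 7.26% and 2.64% of all tested entries. The 6 became 2 without MEC 1 or MEC 2, 3 without MEC 3 or line 233, and 29 without line 199, where 10.8% of all tested entries were called lower. The 1 higher call was lost without any 1 MEC preparation. Of the 29, some were under 1 FPKM in lines 233 and 336 and passed the filter through the other libraries. Such genes were bound to differ, so the count of 29 is a description. Above MEC in line 199 and below MEC in both other lines were 21 of the 56, a pattern chosen after its values were seen and held by 4.32% of all tested entries.

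Of the 18 tested genes for hydroxylation, glycosylation and folding, none was called over the 3 lines, and 8 were called lower without line 199 (10.8% of all tested entries). *Serpinh1*, which encodes the collagen chaperone HSP47, had 211, 210.5 and 233 FPKM in MEC and 369.6, 26.0 and 77.1 FPKM in lines 199, 233 and 336 (limma adjusted p = 0.392, and 0.0298 without line 199). Some other genes of this list stayed closer to MEC: *P4hb*, a subunit of prolyl 4-hydroxylase, had 176 to 232 FPKM in MEC and 251, 147 and 145 FPKM in the lines. *Ppib*, a prolyl isomerase, had 104 to 113 FPKM and 104, 97.8 and 65.2 FPKM. *Colgalt1*, which glycosylates hydroxylysine, had 53.9 to 56.6 FPKM in MEC and 46.0 to 50.2 FPKM in the lines (limma adjusted p = 0.324). *Fkbp10*, named after its values were seen, encodes a chaperone of procollagen and had 19.6 to 26.4 FPKM in MEC, 25.3 FPKM in line 199, and 0.0195 and 0.196 FPKM in lines 233 and 336. The hydroxylation genes *P4ha2* and *Plod1*, named in the same way, lay below all MEC in every line. *P4ha2* had 33.6 to 47.0 FPKM in MEC and 20.1, 5.88 and 2.90 FPKM in the lines (limma adjusted p = 0.0590, and 0.00462 without line 199).

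Export genes of the endoplasmic reticulum, which serve many cargoes beside collagen, gave no call among 8 tested over the 3 lines. Without line 199, *Sec24d* was called lower (10.8% of all tested entries). *Sec13* spanned 66.2 to 83.4 FPKM in MEC and 69.5 to 99.4 FPKM in the lines, *Tfg* 80.9 to 114 and 60.5 to 88.7 FPKM, and *Sar1b* 59.1 to 73.7 and 38.9 to 73.5 FPKM. *Mia3*, which encodes the procollagen export receptor TANGO1, had 19.1 to 22.0 FPKM in MEC and 16.6 to 20.3 FPKM in the lines.

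Among 6 tested genes for removal of propeptides, *Bmp1* and *Adamts3* were called lower, beside 7.26% of all tested entries. *Bmp1*, the C-proteinase of fibrillar procollagens, had 58.5, 58.6 and 73.1 FPKM in MEC and 16.8 to 36.3 FPKM in the lines (log2 fold change -1.22, limma adjusted p = 0.0487). *Adamts3*, an N-proteinase, had 2.19 to 3.74 FPKM in MEC and at most 0.00566 FPKM in the lines (log2 fold change -1.97, limma adjusted p = 0.00807), and it passed the expression filter through MEC alone, so it was bound to differ. *Adamts2*, the main N-proteinase of type I, was at 2.28 to 3.72 FPKM in MEC, 5.53 FPKM in line 199, and 0.0158 and 0.00294 FPKM in the others. *Pcolce*, which enhances *Bmp1* activity, had 2.41 to 4.70 FPKM in MEC and 33.7, 8.50 and 4.67 FPKM in lines 199, 233 and 336 (limma adjusted p = 0.182), on an entry it shares with another gene. *Pcolce2* was at 1.04 to 2.34 FPKM in MEC and 0.263 to 0.579 FPKM in the lines, and *Adamts14* at 0.229 to 0.477 and 0.820 to 3.38 FPKM.

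The crosslinking enzymes held the single call in the upward direction, beside 2.64% of all tested entries. *Loxl4*, a lysyl oxidase, had 2.67, 2.84 and 1.91 FPKM in MEC and 10.7, 46.9 and 15.7 FPKM in lines 199, 233 and 336 (log2 fold change 2.61, limma adjusted p = 0.0279). *Lox* had 25.2, 28.4 and 34.7 FPKM in MEC and 165, 14.4 and 6.91 FPKM in the lines. It lay above MEC in line 199 and below MEC in the others, though less far below than *Col1a1*. *Loxl3* had 7.19 to 12.6 FPKM in MEC and 17.0, 0.134 and 0.0413 FPKM in the lines, and *Loxl1* and *Loxl2*, named after their values were seen, also stood above MEC in line 199 and below 0.1 FPKM in the others. *Pxdn*, the peroxidase that crosslinks type IV collagen, had 46.7 to 58.5 FPKM in MEC and 36.8, 7.31 and 6.33 FPKM in the lines (limma adjusted p = 0.0889, and 0.00173 without line 199). *Tgm2*, a transglutaminase, had 86.4 to 165 FPKM in MEC and 42.5, 12.7 and 157 FPKM in the lines.

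**Figure D4:**
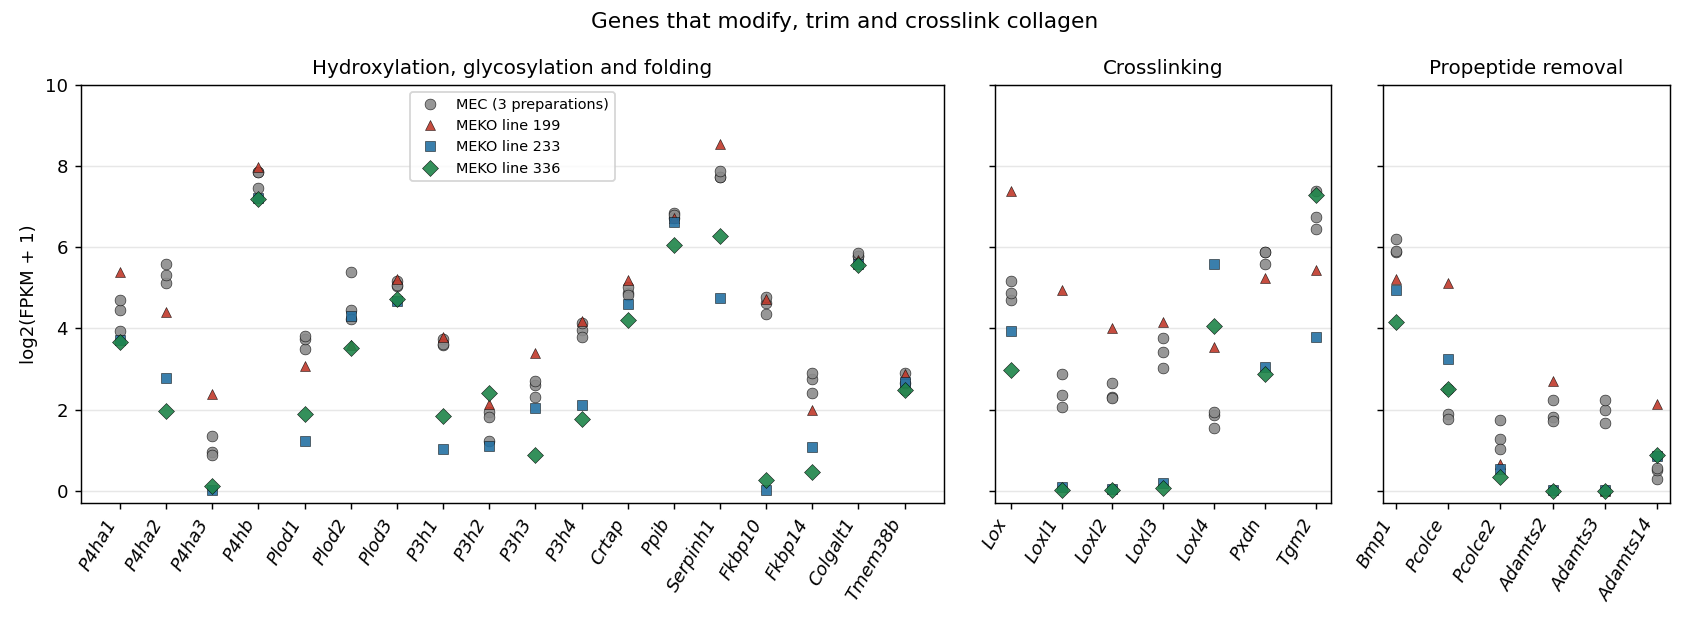
log2(FPKM + 1) of tested genes for hydroxylation, glycosylation and folding, for crosslinking and for propeptide removal, with gray circles for the 3 MEC preparations and colored symbols for MEKO lines. *Lox* is at 165 FPKM in line 199 and at 14.4 and 6.91 FPKM in lines 233 and 336, and *Loxl4* lies above MEC in all 3 lines.

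Of the 8 tested collagen receptors and uptake genes, *Itgb1* and *Itga1* were called lower, beside 7.26% of all tested entries. *Itgb1*, the β1 integrin shared by all collagen-binding integrins, had 602, 592 and 616 FPKM in MEC and 366, 159 and 141 FPKM in lines 199, 233 and 336 (log2 fold change -1.57, limma adjusted p = 0.0426). *Itga1* had 1.10 to 2.49 FPKM in MEC and 0.00353 to 0.421 FPKM in the lines (log2 fold change -1.31, limma adjusted p = 0.0474), and it too passed the filter through MEC alone. *Itga2*, the main collagen-binding α chain of epithelium, had 10.5 to 19.8 FPKM in MEC, 7.21 FPKM in line 199, and 0.157 FPKM or less in the others (limma adjusted p = 0.0687, and 0.00271 without line 199). In the fit without line 199 *Itga2* was bound to differ, because it passed the filter through the other libraries, so that p is a description. *Ddr1*, a collagen receptor tyrosine kinase, overlapped between the groups at 38.3 to 70.4 and 20.5 to 45.7 FPKM, and *Itga10*, on a shared entry, had 5.01 to 5.53 and 4.05 to 4.72 FPKM. *Ddr2*, which binds fibrillar collagen, had 1.10 to 2.16 FPKM in MEC and 24.2, 10.5 and 0.111 FPKM in the lines.

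Matrix proteins that bind collagen were represented by 9 tested genes. Of these, *Agrn* and *Dcn* were called lower over the 3 lines, beside 7.26% of all tested entries. Without line 199, 8 were called lower (10.8% of all tested entries). Some of the 8, such as *Postn* and *Bgn*, were near or under 1 FPKM in lines 233 and 336. They passed the filter through the other libraries and were bound to differ, so the count of 8 is a description. *Agrn*, a basement membrane proteoglycan, had 92.7 to 110 FPKM in MEC and 34.3 to 52.3 FPKM in the lines (log2 fold change -1.13, limma adjusted p = 0.0204). *Dcn*, which encodes decorin of stromal fibrils, had 3.29 to 6.62 FPKM in MEC and 0.311, 0 and 0.366 FPKM in lines 199, 233 and 336 (log2 fold change -2.30, limma adjusted p = 0.00821), and it passed the filter through MEC alone. *Postn* had 243 to 445 FPKM in MEC and 321, 0.667 and 0.149 FPKM in lines 199, 233 and 336. *Bgn*, a proteoglycan of fibrils, had 79.0 to 149 FPKM in MEC and 498, 1.01 and 0.905 FPKM in the lines, the same order of libraries as *Col1a1*. *Fn1*, fibronectin, and *Sparc*, a collagen chaperone of the matrix, were at 246 and 615 FPKM in line 199 and at 17.7 to 18.5 and 68.3 to 91.3 FPKM in the other lines, against 294 to 505 and 335 to 451 FPKM in MEC.

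Marker lists of cell types were summed in each library, and not all of them followed the collagens. A list of 12 fibroblast markers summed to 37.4 to 51.8 FPKM in MEC, 88.2 FPKM in line 199, 0.850 FPKM in line 233 and 4.64 FPKM in line 336, and 4 of its 6 tested members lay above MEC in line 199 and below it in both other lines. Within that list *Dcn*, *Lum*, *Dpt*, *Pi16* and *Fap* were at 0.311 FPKM or less in line 199, and *Pdgfra* was at 1.31 FPKM, while *Fbn1* was at 38.8 FPKM and *Pdgfrb* at 19.0 FPKM. The part of fibroblasts in the collagen levels was not tested. *Dcn* and *Lum* are on the list of collagen-binding proteins too.

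Endothelial markers (6 genes) summed to 18.1, 21.0 and 2.24 FPKM in MEC 1 to 3 and to 0.164 to 2.10 FPKM in the lines, and those of pericytes and smooth muscle (6 genes) to 10.2 to 18.5 and 2.17 to 6.86 FPKM. Among the MEC preparations, MEC 3 had the lowest sum for every marker list except that of leukocytes, which was highest there. *Col3a1*, *Col4a1*, *Col4a2* and *Col6a3* were among the tested collagens that were also lowest in MEC 3. In contrast, *Col4a5*, *Col4a6*, *Col8a1*, *Col9a3*, *Col11a1*, *Col14a1*, *Col15a1* and *Col16a1* were highest in MEC 3. These genes were picked out once their levels were known. The part of any of these cell types in the collagen levels was not tested. Adipocyte markers (5 genes) summed to 1.48 to 11.7 FPKM in MEC, most of it *Fabp4*, and to 1.19 FPKM or less in the lines. Leukocyte markers (6 genes) summed to 5.94 to 10.1 FPKM in MEC and to 0.938, 3.08 and 24.9 FPKM in lines 199, 233 and 336, where 23.5 FPKM of the last was *Cd68*, and *Ptprc* was at 0.399 FPKM or less in every library. Myoepithelial markers (7 genes) summed to 1329 to 2318 FPKM in MEC, 1882 FPKM in line 199, and 9.93 and 45.1 FPKM in the others, a sum carried by *Krt5*, *Krt14* and *Acta2*. Of these 7, 3 lay above all MEC in line 199 and 4 below, where 40.2% and 39.1% of all tested entries did so. *Myh11* and *Oxtr* were at 0.0812 FPKM or less in all 3 lines. Luminal markers (7 genes) summed to 5355 to 8904 FPKM in MEC and to 791 to 1966 FPKM in the lines, lowest in line 199.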

How the data were processed

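RNA-seq was analysed from 3 MEC preparations and 3 MEKO lines, 1 library each, grouped by sample title. The authors trimmed paired-end reads, aligned them to mm10 (GRCm38) with Bowtie2 and TopHat2 2.0.14, and quantified genes with Cufflinks 2.2.1. The deposited table holds these FPKM values. Library strandedness is not given in the sources used here. FPKM carry no read numbers, so depth is unknown and no counting interval was computed. Summed FPKM were 557991 to 638365 per library, with 17343 to 18741 entries above 0. Of 37755 entries, 2 had no values.

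Collagens were found by symbol, and the members, classes and lists were chosen with earlier results of these data known. MEKO lines were set against MEC by limma 3.58.1 (R 4.3.3) on log2(FPKM + 1). The fit let variance follow the mean, and p values were adjusted by Benjamini and Hochberg's method over the 12461 entries with a mean of at least 1 FPKM. The fit was also run on simulated data with 200 moved genes, of which 172 were recovered, with 11 false calls. The median change of the moved genes was 2.99 on the log2 scale, in either direction. That is larger than the change of any called collagen, so recovery of smaller changes was not covered. Moved genes were drawn from those with higher MEC levels, so genes as low as *Col14a1* were not covered. Chain ratios were compared by an exact permutation test (two-sided). Every tested collagen was named, and from each list the called genes and up to 4 others with the highest mean; other names were chosen after their values were seen. Positions come from GENCODE M21 and upstream sequence from RefSeq (GRCm38.p6). Alternatives were a pseudocount of 0.1, no filter, a filter at 5 FPKM, quantile and upper-quartile scaling, no trend, sample weights, the adjusted p alone and each library left out.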

Additional observations from a re-analysis of the deposited data

How the results depend on the processing

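The count of 4 collagens lower in MEKO was 0 with a filter at a mean of 5 FPKM, which removes those genes, and 9 with sample weights. With 1 library left out it ranged from 1, without MEC 1, to 17, without line 199, and it was 2 without MEC 2 or without MEC 3. No collagen was called higher by limma under any alternative. *Col9a3* was called in all 12 alternatives that tested it. The direction of *Col5a1* and *Col18a1* changed in 1 alternative each, without line 233, where neither was called. Of genes that act on collagen, 6 were called lower, against 2 with the filter at 5 FPKM, 20 with sample weights and 2 to 29 with a library left out. The single higher one was not called with no filter, which gave 0, and the count was 0 to 1 with a library left out.

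Placement against MEC changed where the filter changed the number of genes. With no filter, 14, 31 and 30 collagens lay below all MEC in lines 199, 233 and 336, and 3 lay above in lines 233 and 336 each. At 5 FPKM, 0 lay below in line 199 and 12 in line 233. The collagens added with no filter had means of 0.748 FPKM or less. Shares of all entries under these other filters were not computed, so the counts are a description. With quantile normalization 2 lay above in line 336. With 1 MEC preparation left out, 5 to 6, 19 to 20 and 19 lay below in lines 199, 233 and 336, and 13 to 14, 1 to 2 and 1 to 3 lay above. No paired analysis was possible because MEC preparations came from pools of virgin females and MEKO lines from tumors of other mice, which had borne litters. Low genes are measured with the least precision, at a depth that is unknown.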
